A study of Mus musculus with 6 samples.

Results

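B cell identity is held by a small set of transcription factors, and the transcripts of 10 of them were followed here in mouse spleens with and without overexpression of AIMP2-DX2. The 10 genes, Ebf1, Pax5, Foxp1, Ets1, Spib, Pou2af1, Pou2f2, Bach2, Ikzf3 and Bcl11a, were chosen by name. Each was represented by the probe set annotated to it alone, or by the one with the highest mean over the 6 arrays where there were several, which applied to Bcl11a. All 10 were found among the 22180 genes tested.

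AIMP2 holds together a complex of tRNA synthetases, and DX2 is a splice form of AIMP2 that lacks an exon. The DX2 group was 3 spleens of mice with genotype CAG-rtTA; TRE DX2/+, in which the doxycycline-dependent activator rtTA is driven by the CAG promoter, active in most cell types, and in turn switches on the TRE DX2 transgene. The control group was 3 spleens of littermates with genotype 0; TRE DX2/+, which carry the transgene and lack the activator. Mice of both groups were given doxycycline (6.25 mg per kg) in their pellets from 8 weeks of age until they were 1 year old, so the drug and the uninduced transgene were common to all samples, and DX2 cannot be told apart from rtTA itself. Each spleen was measured on 1 Affymetrix array, values are log2 RMA expression, and the titles name the samples of a group biological replicates. The number of arrays limits the precision.

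EBF1 and PAX5 commit lymphoid progenitors to the B lineage, open the genes of the B cell receptor and its coreceptors, and keep mature B cells what they are. Around them work factors that tune mature B cells: the Ikaros relative Aiolos (Ikzf3), the repressor BACH2, which holds back plasma cell formation, the forkhead protein FOXP1, the ETS proteins ETS1 and Spi-B, the zinc finger protein BCL11A, and the octamer-binding OCT-2 (Pou2f2) with its B cell coactivator OBF-1 (Pou2af1). Few of these are restricted to B cells. Ets1, Foxp1, Bach2 and Ikzf3 are also expressed in T cells, and Spib and Bcl11a in plasmacytoid dendritic cells.

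The spleens were whole tissue and differed in more than the transgene. By Xist and Y-linked transcripts, controls 1 and 2 were female and control 3 and all DX2 spleens male, which the labels do not state. Transcripts of B cells were abundant on every array, with Cd79b, a chain of the B cell receptor, between 9.55 and 11.13. All 14 measured B cell markers were lower in DX2 than in control spleens, with a median log2 difference of -1.18, and 4 of them passed the test. Over all genes, 48.4% were lower and 0.28% passed as lower. In whole tissue, fewer B cells and less of a transcript per B cell cannot be told apart.

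All 10 transcription factors had a lower mean in DX2 spleens, against 48.4% of all genes, and Ebf1, Foxp1 and Ets1 fell by the test across all genes. Differences are DX2 minus control on the log2 scale, tested with limma at a Benjamini-Hochberg adjusted p of 0.05. The median difference of the 10 was -0.96, against 0.01 over all 22180 genes. The 3 that fell compare with 62 genes, or 0.28% of those tested, that passed in this direction. For 8 of the 10, each DX2 value lay below each control value, against 11.2% of all genes, and the exceptions were Pou2af1 and Spib. At an unadjusted p under 0.05, 8 of the 10 were lower, against 7.82% of all genes. The 10 were proposed with earlier results of these arrays in view, so these counts describe them and are no independent evidence of a shared direction. The calls depend on the set of arrays and the scaling: with array weights or without DX2 2 there were 5 members past the threshold, and there were 0 without any one of the 5 other arrays, with a sex term, among the 4 male spleens or with arrays centred on their medians.

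**Figure D1:**
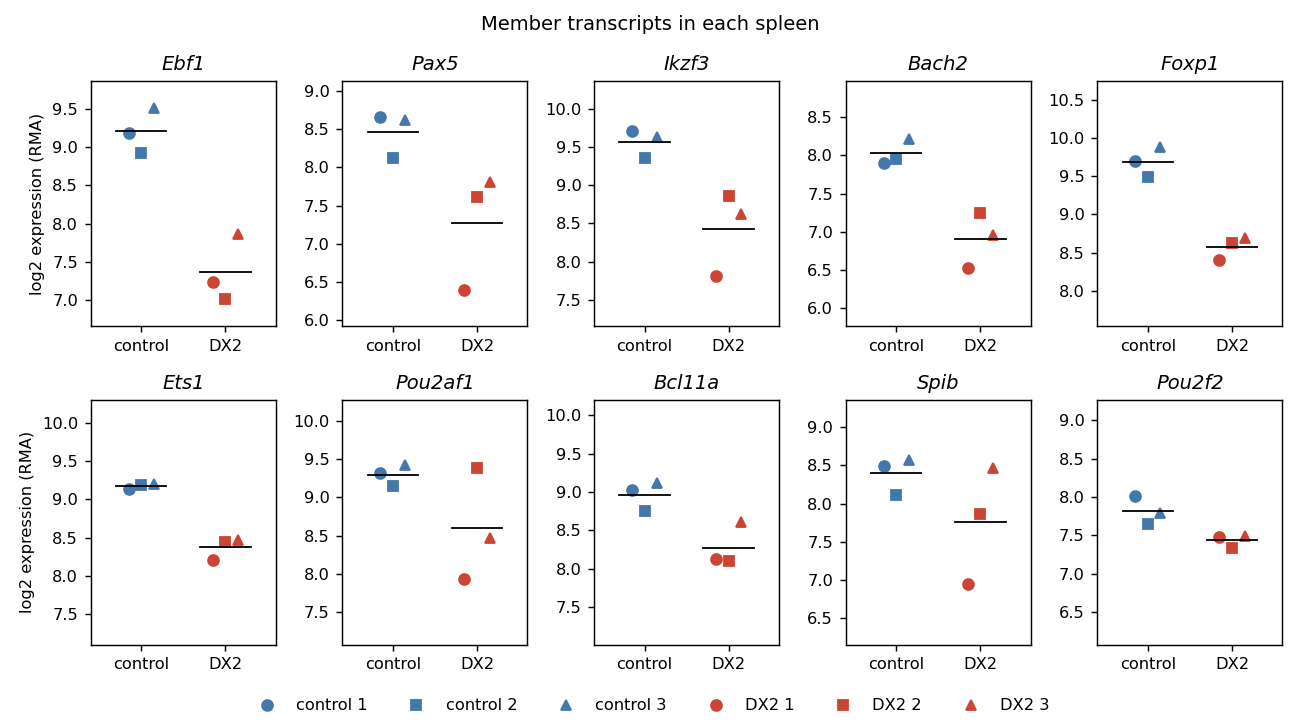
Log2 expression of each of the 10 transcription factor genes in the 3 control (blue) and 3 DX2 (red) spleens, with the replicate shown by the marker and the group mean by a line. Every panel spans the same number of log2 units but starts at its own level. The groups separate in 8 panels, while a DX2 spleen reaches the control range for Pou2af1 (9.39 in DX2 2) and Spib (8.47 in DX2 3).

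Ebf1, the gene of the pioneer factor of the B lineage, had the largest difference of the 10. It read 9.18, 8.92 and 9.51 in controls 1, 2 and 3 and 7.24, 7.01 and 7.87 in DX2 1, 2 and 3. The gap between the highest DX2 and the lowest control value was 1.06, wider than the spread within either group. The mean was 9.21 ± 0.30 in control and 7.37 ± 0.44 in DX2 spleens (SD, n = 3 each), a 3.57-fold lower level, with a difference of -1.84 (SE 0.24, limma adjusted p = 0.0422). Ebf1 ranked 7 from the bottom among the differences of all genes. With a sex term the difference was -2.14 (limma adjusted p = 0.254), control 3 being the only male control.

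Pax5, which acts downstream of EBF1 and represses genes of other lineages, was lower in each DX2 spleen but to very unequal degrees. Its values were 8.65, 8.12 and 8.61 in control spleens and 6.40, 7.62 and 7.81 in DX2 1, 2 and 3. DX2 1 stood apart, and the other two lay under the lowest control, by 0.31 at the nearest. The difference was -1.18 (SE 0.36, limma adjusted p = 0.182) and did not pass. Without DX2 1 it was -0.75.

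Foxp1 and Ets1, the other members that fell, varied little among the DX2 spleens. Foxp1 supports early B cell development and the survival of mature B cells. It read 9.69, 9.49 and 9.88 in control and 8.40, 8.63 and 8.69 in DX2 spleens. All DX2 values lay within 0.30 of one another and well under the controls. Foxp1 was 2.17-fold lower (-1.12, SE 0.14, limma adjusted p = 0.0387). Ets1, which restrains the step from B cell to plasma cell, read 9.14, 9.19 and 9.20 in control and 8.21, 8.44 and 8.47 in DX2 spleens. Its control values spanned only 0.06, and its difference of -0.80 (SE 0.11, limma adjusted p = 0.0456), a 1.74-fold lower level, was the smallest of those that passed. A further probe set shared by Ets1 and Taok1, which cannot be assigned to either, differed by -0.08 (SE 0.15).

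Bach2 and Ikzf3 were about as much lower as Foxp1 and varied more between the DX2 spleens. Bach2 read 7.90, 7.96 and 8.22 in control and 6.52, 7.24 and 6.96 in DX2 spleens, with no overlap (-1.12, SE 0.19, limma adjusted p = 0.0733). A probe set annotated to both Bach2 and the antisense gene Bach2os differed by -0.10 (SE 0.13) and cannot be assigned to Bach2. Ikzf3, whose product Aiolos sits on many B cell enhancers, read 9.71, 9.35 and 9.63 in control and 7.81, 8.86 and 8.62 in DX2 spleens. DX2 1 was again the lowest, and Ikzf3 did not pass at -1.13 (SE 0.26, limma adjusted p = 0.111). Without DX2 2, Bach2 was -1.29 and passed (limma adjusted p = 0.0376), while Ikzf3 was -1.35 and did not (adjusted p = 0.051).

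Pou2af1 and Spib, the only 2 of the 10 that overlapped between the groups, were lowest in DX2 1. OBF-1, the product of Pou2af1, joins octamer-binding proteins on DNA and is needed for germinal centres. Pou2af1 read 9.31, 9.14 and 9.43 in control spleens and 7.93, 9.39 and 8.47 in DX2 1, 2 and 3. DX2 2 was thus inside the control range for Pou2af1 while it had the lowest Ebf1 of all spleens. The Pou2af1 difference was -0.70 (SE 0.33, limma adjusted p = 0.359). It was -0.37 without DX2 1 and -1.10 without DX2 2, where it passed (limma adjusted p = 0.0444). Spib, an ETS factor related to PU.1, read 8.49, 8.12 and 8.58 in control and 6.94, 7.86 and 8.47 in DX2 spleens. DX2 3 was in the control range, and the difference of -0.64 (SE 0.35, limma adjusted p = 0.434) shrank to -0.23 without DX2 1.

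Bcl11a and Pou2f2 were lower without overlap between the groups, and neither passed. Bcl11a, needed for the earliest B cell progenitors, read 9.02, 8.76 and 9.11 in control and 8.12, 8.10 and 8.60 in DX2 spleens. DX2 3 came within 0.15 of the lowest control, and the difference was -0.69 (SE 0.17, limma adjusted p = 0.126). A dimmer second Bcl11a probe set, with a mean of 4.17, differed by -0.24 (SE 0.20), and the average of both probe sets by -0.46. Pou2f2 read 8.02, 7.65 and 7.79 in control and 7.48, 7.33 and 7.50 in DX2 spleens. With -0.38 (SE 0.13, limma adjusted p = 0.216), a 1.30-fold lower level, it was the least changed in size of the 10.

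**Figure D2:**
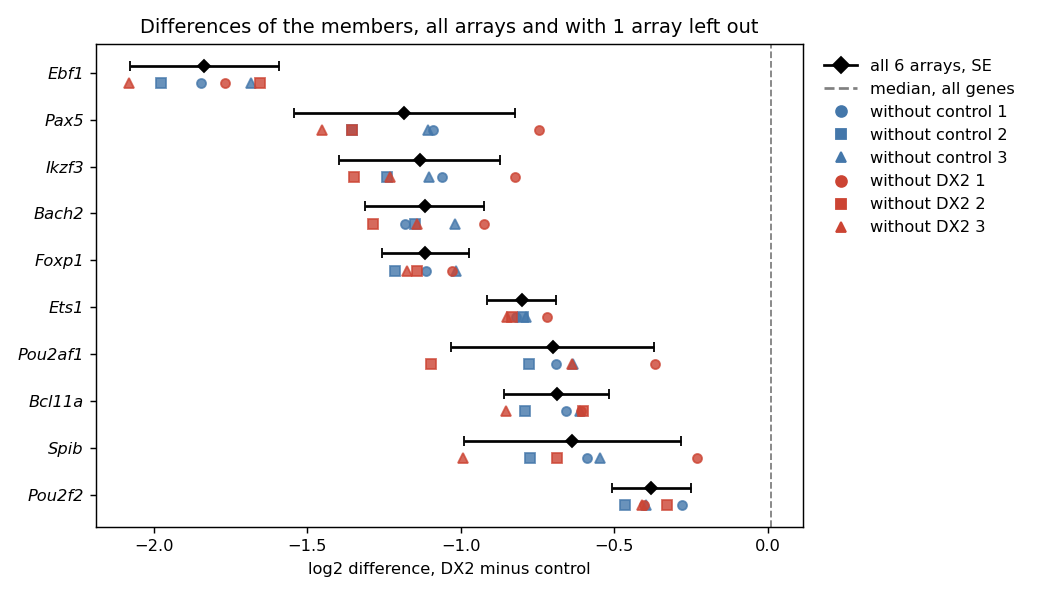
Log2 difference, DX2 minus control, of each gene with all 6 arrays (black diamond, bar of 1 SE) and with 1 array left out (coloured markers, named by the array removed); the dashed line is the median of all genes, 0.01. All points lie below 0. With 1 array left out Ets1 runs from -0.85 to -0.72 and Foxp1 from -1.22 to -1.02, and Pax5, Pou2af1 and Spib move toward 0 when DX2 1 is removed.

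The DX2 spleen with the lowest value was not the same for every factor. It was DX2 1 for 7 of the 10 and DX2 2 for Ebf1, Bcl11a and Pou2f2. The range among DX2 spleens was 1.41 for Pax5, 1.46 for Pou2af1 and 1.53 for Spib, but 0.26 for Ets1 and 0.16 for Pou2f2. Among control spleens no factor ranged over more than 0.59. For Foxp1 and Pou2f2 the range was wider among the controls (0.40 and 0.37) than among the DX2 spleens (0.30 and 0.16).

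Markers of other cells also differed between the spleens. All 12 measured T cell markers had a lower mean in DX2, against 48.4% of all genes (0 passed limma's test and 1 had an unadjusted p under 0.05). Their mean log2 value was 6.73 in DX2 1, below the control range of 7.79 to 8.11, but 8.08 in DX2 2 and 7.86 in DX2 3, inside it. Foxp1 and Ets1 were below every control in all DX2 spleens, and the part of T cells in their differences was not tested. Of 9 plasmacytoid dendritic cell markers 7 were lower (0 passed, 1 unadjusted). Their mean was low in DX2 1 (6.32, against 7.06 to 7.49 in control spleens) and inside the control range in DX2 2 and DX2 3. RMA values have no zero, and the dimmest of these 2 lists by mean were Cd3d (6.87) and Ccr9 (5.41).

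The mean of the red pulp macrophage markers was higher in every DX2 spleen than in any control, and the means for blood-forming cells were higher in some. All 11 erythroid markers had a higher mean (0 passed, 1 unadjusted). Their mean was 9.47 in DX2 1 and 9.19 in DX2 3, against 7.21 in DX2 2 and 6.22 to 7.95 in controls. Ebf1 was 7.24, 7.01 and 7.87 in DX2 1, 2 and 3, and a link to the erythroid means was not tested. Of 14 neutrophil markers 13 were higher (0 passed, 0 unadjusted, limma), with a mean of 8.76 in DX2 1 and at most 7.69 elsewhere. Of 15 red pulp macrophage markers 12 were higher (1 passed, 9 unadjusted as higher and 1 as lower), and their mean was 9.11 to 9.20 in DX2 against 8.62 to 8.84 in control spleens. Of 11 endothelial markers 9 were higher (0 passed, 3 unadjusted), and of 9 conventional dendritic cell markers 5 (0 passed, 1 unadjusted in each direction). The part of these other cells in the remaining results was not tested.

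**Figure D3:**
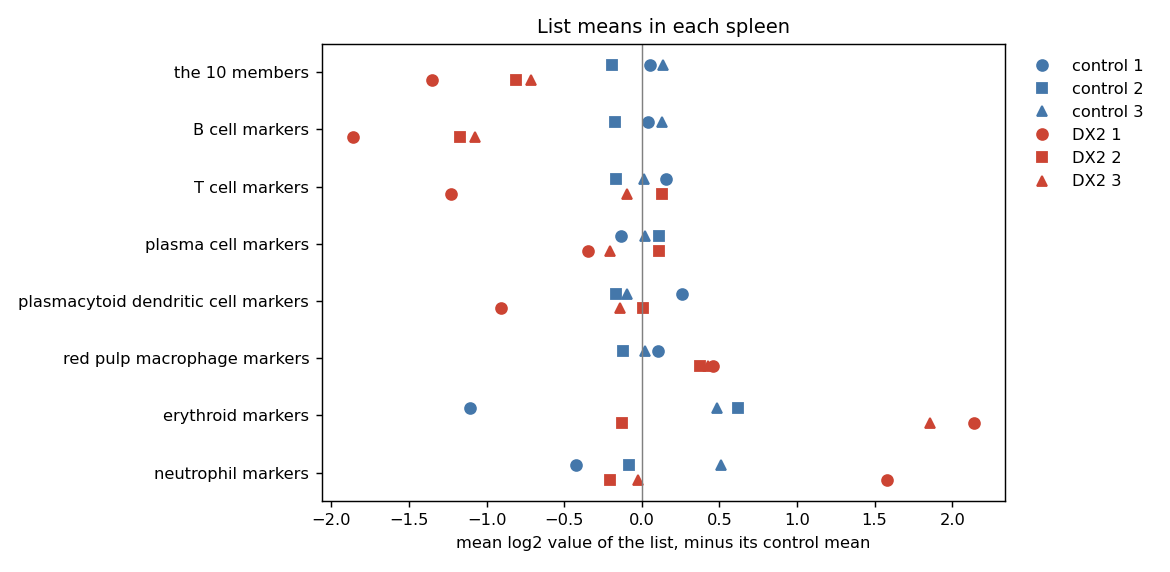
Mean log2 value of each gene list in each spleen, minus the mean of the 3 controls; blue markers are control and red markers DX2 spleens. The 10 transcription factors and the B cell markers are low in all 3 DX2 spleens, the T cell and plasmacytoid dendritic cell markers in DX2 1 only, and the erythroid markers are high in DX2 1 and DX2 3.

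Relative to the mean of the B cell markers, most of the transcription factors lay higher in DX2 spleens, as did nearly all genes. Ebf1 lay lower, without passing the test. For this the mean of the 14 markers in each spleen was subtracted from each log2 value. The mean of the markers was 9.92 ± 0.15 in control and 8.55 ± 0.43 in DX2 spleens (SD, n = 3 each). Against it 9 of the 10 factors lay higher in DX2, Ebf1 being the exception, while 98.5% of all genes passed as higher. Ebf1 relative to the markers read -0.77, -0.82 and -0.53 in control and -0.81, -1.74 and -0.97 in DX2 spleens, a difference of -0.47 (SE 0.33, limma adjusted p = 0.163). The groups touched, and DX2 2 was the farthest below the controls. The difference was -0.19 without DX2 2 (limma adjusted p = 0.621) and -0.65 without DX2 1, where it passed (limma adjusted p = 0.0162).

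Pou2f2, the least lowered of the 10, had by construction the largest difference relative to the B cell markers. Over all genes the median of this relative difference was 1.38, larger than that of any of the 10. Relative to the markers, Pou2f2 read -1.94, -2.10 and -2.26 in control and -0.57, -1.41 and -1.34 in DX2 spleens, with a difference of 0.99 (SE 0.33, limma adjusted p = 0.00317). Spib (0.73, adjusted p = 0.0285), Bcl11a (0.68, adjusted p = 0.0413) and Pou2af1 (0.67, adjusted p = 0.0453) also passed limma's test. Foxp1 (0.25) and Ets1 (0.57) did not pass. Without DX2 2, Pou2af1 was 0.37 and did not pass (limma adjusted p = 0.324), and without DX2 1, Foxp1 was 0.10. Without any one control only Pou2f2 passed, and without DX2 3 Spib (0.52) and Bcl11a (0.66) did not. The groups did not overlap for 6 of the 10, against 97.8% of all genes. The same test passed 98.5% of all genes as higher, the markers themselves being low, so the 4 of 10 is a far smaller share than that of genes at large. In this fit limma gave every gene the same standard error, and the error of the shared reference is not lessened by the number of genes, so these p-values are uncertain. The count was 1 with the median of the markers, or with only Ms4a1, Cd79a, Cd79b and Cd22, as the reference.

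**Figure D4:**
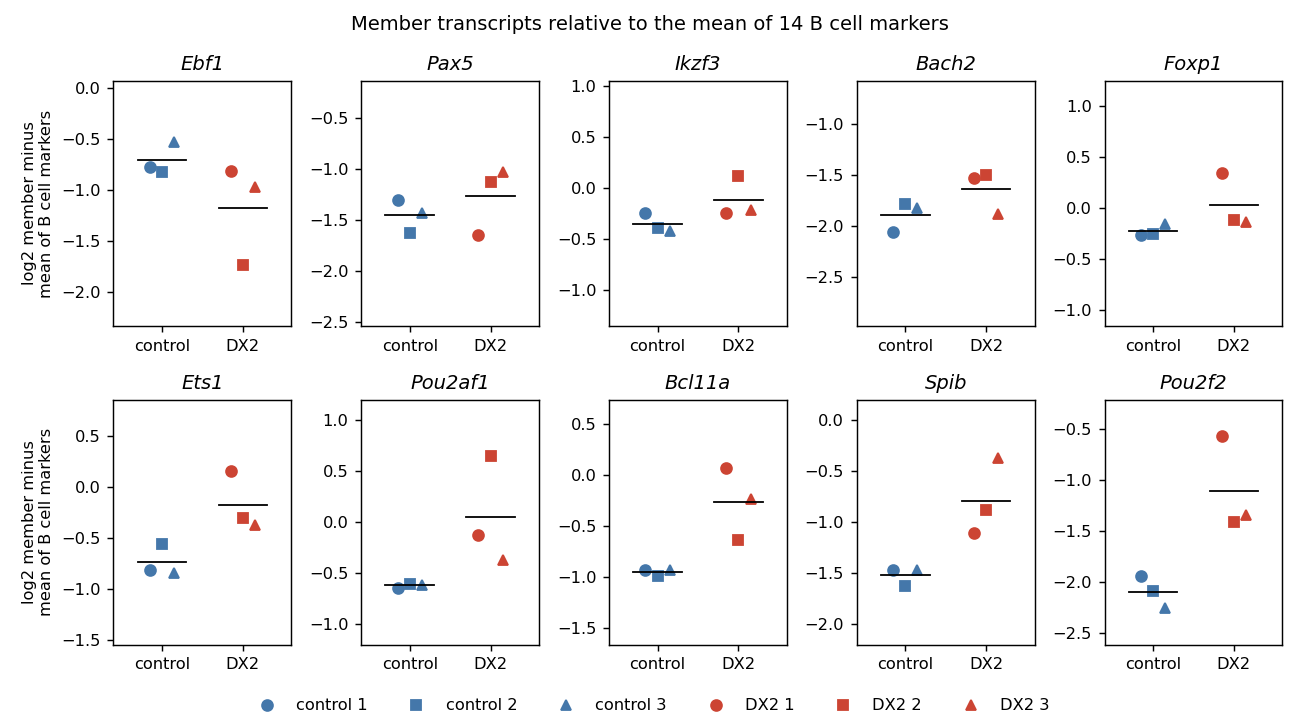
Log2 value of each transcription factor minus the mean of the 14 B cell markers in the same spleen, for control (blue) and DX2 (red) spleens; lines are group means. Ebf1 is the only panel in which the DX2 mean is lower, and in 6 panels (Foxp1, Ets1, Pou2af1, Bcl11a, Spib, Pou2f2) all DX2 values lie above all control values.

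The genes whose profile was closest to Ebf1 included those of the chemokine receptors CCR6 and CXCR5. Profiles were centred on their own mean, and closeness was the mean absolute difference over the 6 arrays. In order these were Psd3 (0.17), the chemokine receptor Ccr6 (0.18), Ralgps2 (0.19), Edaradd (0.20) and Cxcr5 (0.22), the receptor that takes B cells into follicles. Psd3, Ccr6, Ralgps2 and Edaradd shared with Ebf1 a lowest value in DX2 2. For Psd3 the DX2 values were 5.43, 4.45 and 5.64, against 6.68 to 7.06 in control spleens. Closest to the mean of the 10 factors were Zfp831 (0.07), Ap1s3 (0.07), Ablim1 (0.07), the B cell scaffold gene Bank1 (0.07) and the lymphocyte adaptor Lax1 (0.08), each lowest in DX2 1. Among the 10 themselves, Foxp1 and Bach2 had the most similar profiles (0.14), followed by Ets1 and Bcl11a (0.15).

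A wider list of transcription factors around the B cell pathway was not lowered as a whole. The list also holds factors of other cells, such as Gata3 and Bcl11b of T cells and Prdm1 of plasma cells. Its median therefore does not describe B cell factors alone. Of 45 listed genes 43 were measured, 25 lower and 18 higher, with a median difference of -0.04 and 0 past limma's threshold in either direction (7 lower and 3 higher at an unadjusted p under 0.05). The groups were apart for 8 as lower and 4 as higher, against 11.2% and 10.7% of all genes. The 4 with the smallest p were Mef2c (-1.03, SE 0.25), which supports B cell receptor driven growth, Rel (-0.92, SE 0.23), an NF-kB subunit, Fli1 (-0.52, SE 0.14), an ETS factor, and Irf4 (-0.68, SE 0.20), which acts in both activated B cells and plasma cells. Their limma adjusted p lay between 0.122 and 0.168. Among factors that act upstream of Ebf1 in progenitors, those named here were picked after their values were seen and went both ways. Foxo1 differed by -0.66 (SE 0.23), the E protein gene Tcf3 by 0.22 (SE 0.22) and Spi1, which encodes PU.1, by 0.30 (SE 0.11). None of these passed, and the groups were apart for Foxo1 as lower and for Spi1 as higher. The related family members Ebf3 (0.27, SE 0.20) and Ebf4 (0.12, SE 0.10) differed in the other direction from Ebf1 without passing. Both were dim, with control and DX2 means of 5.27 and 5.54 for Ebf3 and 5.45 and 5.56 for Ebf4.

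**Figure D5:**
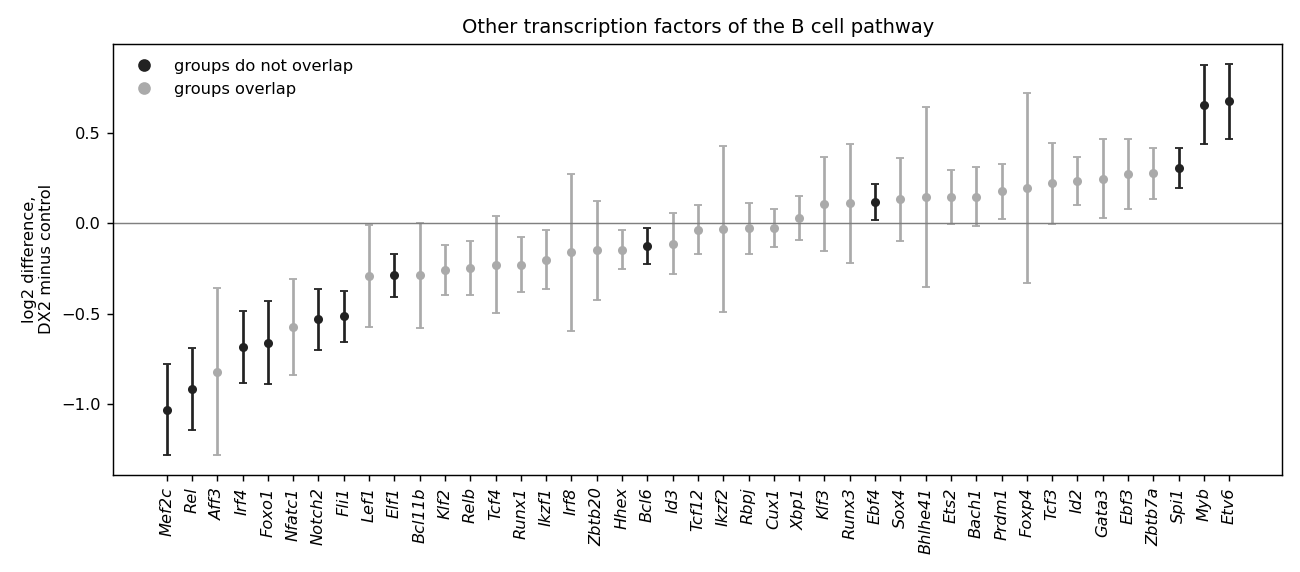
Log2 difference, DX2 minus control, with bars of 1 SE, for the 43 other measured transcription factors of the B cell pathway in order of size; black points mark genes whose 3 DX2 values all lie on one side of the 3 control values. Differences run from -1.03 (Mef2c) to 0.68 (Etv6) and lie on both sides of 0.

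Most B lineage genes linked to EBF1 and PAX5 were lower in DX2 spleens. A list of B lineage genes assembled around both factors had 24 measured members, including Ikzf3 and Bach2. It shares 8 genes with the B cell markers above, among them 4 that passed (Cr2, Cd79b, Cxcr5 and Fcer2a), so it is not a separate result. Of the 24, 21 were lower and 6 passed as lower, with a median of -1.11, and 0 passed as higher. For all genes the shares were 48.4% lower and 0.28% passed as lower. The 4 with the smallest p were Ralgps2 (-1.51, SE 0.15), the cannabinoid receptor Cnr2 (-1.06, SE 0.13), the complement receptor Cr2 (-3.16, SE 0.43) and Cd79b (-1.14, SE 0.16), with limma adjusted p from 0.0329 to 0.0456. The surrogate light chain genes Vpreb1 and Igll1, which EBF1 and PAX5 help to switch on in progenitors, differed by 0.15 (SE 0.14) and 0.03 (SE 0.10); they were named for their stage after their values were seen, and both were dim, at most 4.01 and 4.76.

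A list around OCT-2, OBF-1 and Spi-B had 12 measured members, 3 of them B cell markers already counted (Cxcr5, Blk and Cd79a). Of the 12, 10 were lower and 2 passed as lower (48.4% and 0.28% of all genes), with a median of -0.50. Crisp3, a secreted protein whose expression in B cells depends on OCT-2, fell by 1.80 (SE 0.23, limma adjusted p = 0.0387), though at 2.54 to 3.10 in DX2 spleens it was dim and its size is uncertain. Cxcr5 fell by 1.54 (SE 0.22, limma adjusted p = 0.0456). Cd79a differed by -1.36 (SE 0.35), and the ion channel gene Kcnn4 by 0.80 (SE 0.20) in the opposite direction, without passing. Cd36, another gene that needs OCT-2 in B cells and is expressed in other splenic cells too, differed by 0.10 (SE 0.23).

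The plasma cell factors, which BACH2, ETS1 and PAX5 restrain, were not called. Prdm1, which encodes Blimp-1, read 6.98, 6.83 and 6.97 in control and 6.89, 7.41 and 7.02 in DX2 spleens (0.18, SE 0.15, limma adjusted p = 0.628). Xbp1 differed by 0.03 (SE 0.12). Prdm1 and Xbp1 were the only 2 of 10 plasma cell markers that were higher. The other 8 were lower, against 48.4% of all genes. The median of the 10 was -0.13, and 0 passed limma's threshold in either direction (1 lower and 0 higher at an unadjusted p under 0.05). The 1 lower was Irf4 (-0.68, SE 0.20), whose groups did not overlap.

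Since the 10 genes were low together, the 250 bases before their RefSeq start sites (build GRCm38.p6) were searched for short motifs. Most of the motifs are sites that some of these factors are known to bind. The E-box and the GC box searched are named for none of the 10, and no motif of PAX5, BACH2 or BCL11A was searched. Windows were on hand for 8 of the 10 genes, 11 windows in all, and for neither Ets1 nor Ikzf3. Windows are shown for Ebf1 and Foxp1, which fell, and for Spib and Pou2af1, whose groups overlapped. They are written 5′ to 3′ on the gene's strand, and capitals mark a match to any motif searched.
Ebf1, first start, chr11:44617850-44618099, plus strand: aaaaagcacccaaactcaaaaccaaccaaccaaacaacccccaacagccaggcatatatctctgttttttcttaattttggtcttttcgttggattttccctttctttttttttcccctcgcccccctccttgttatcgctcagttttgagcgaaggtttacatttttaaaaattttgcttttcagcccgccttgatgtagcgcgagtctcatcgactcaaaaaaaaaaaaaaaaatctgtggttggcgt
Ebf1, second start, chr11:44619978-44620227, plus strand: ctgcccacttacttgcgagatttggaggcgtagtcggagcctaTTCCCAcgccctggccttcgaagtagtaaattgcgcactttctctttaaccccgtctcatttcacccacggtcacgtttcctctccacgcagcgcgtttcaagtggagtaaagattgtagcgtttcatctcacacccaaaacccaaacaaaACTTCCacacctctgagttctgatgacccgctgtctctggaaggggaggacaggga
Foxp1, start listed as 1 of 3, chr6:99520994-99521243, minus strand: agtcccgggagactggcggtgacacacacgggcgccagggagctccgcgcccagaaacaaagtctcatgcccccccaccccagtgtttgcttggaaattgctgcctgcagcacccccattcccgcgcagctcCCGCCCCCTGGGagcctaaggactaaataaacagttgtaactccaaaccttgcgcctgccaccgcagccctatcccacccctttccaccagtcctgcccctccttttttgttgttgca
Foxp1, start listed as 3 of 3, chr6:99028299-99028548, minus strand: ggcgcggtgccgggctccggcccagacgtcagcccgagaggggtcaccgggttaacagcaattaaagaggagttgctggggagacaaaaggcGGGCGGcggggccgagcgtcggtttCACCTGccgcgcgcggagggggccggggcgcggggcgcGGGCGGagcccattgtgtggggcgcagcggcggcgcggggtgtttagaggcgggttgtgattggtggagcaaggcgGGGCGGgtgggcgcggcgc
Spib, chr7:44532072-44532321, minus strand: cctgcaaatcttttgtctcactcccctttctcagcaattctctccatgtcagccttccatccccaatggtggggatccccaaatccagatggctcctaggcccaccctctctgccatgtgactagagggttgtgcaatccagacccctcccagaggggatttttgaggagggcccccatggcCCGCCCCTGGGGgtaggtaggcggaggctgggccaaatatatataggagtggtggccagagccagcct
Pou2af1, chr9:51213440-51213689, plus strand: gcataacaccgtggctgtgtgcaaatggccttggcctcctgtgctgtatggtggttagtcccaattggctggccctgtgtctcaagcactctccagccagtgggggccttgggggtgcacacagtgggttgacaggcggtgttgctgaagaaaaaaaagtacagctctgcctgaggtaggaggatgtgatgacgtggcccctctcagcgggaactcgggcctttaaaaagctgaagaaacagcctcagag

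The motifs were searched on both strands as exact letters, and N stands for any base. The octamer ATTTGCAT, the PU box GAGGAAGT and the forkhead core TGTTTAC were in 0 of the 11 windows, and in 1.6%, 2.44% and 3.17% of the 32851 windows of all genes. The EBF core CCCNNGGG was in 2 of the 11 (11.8% of all windows). It lay at -114 to -107 from the start in the first Foxp1 window and, as 2 matches that overlap each other and a GC box, at -65 to -57 in that of Spib. The ETS core GGAAGT, which the PU box contains, was in 2 of the 11 (19.7%), the second Ebf1 window, at -56 to -51, and that of Pou2f2. The Ikaros core TGGGAA was in 2, the second Ebf1 window and that of Bcl11a (21.6%). The E-box CAGGTG was in 1, the last Foxp1 window (17.2%), and the GC box GGGCGG in 6 (32.7%). The windows of Pou2af1 and Bach2, the first of Ebf1 and the middle one of Foxp1 held no match. A match or its absence in so short a window describes the letters only.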

How the data were processed

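Total RNA of 6 mouse spleens, 3 control and 3 DX2, was measured on 1 Affymetrix array each, and groups and replicate numbers come from the titles. The log2 expression values were deposited by the authors as 1 table and were made with RMA, per the submitters' processing notes; the software, its version and the annotation were not given in the sources used here. The log2 scale was inferred from the range of the values. RMA normalizes arrays to one another and compresses large differences.

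Of 41345 probe sets, 23521 had 1 gene symbol in the platform annotation, 1814 had several and 16010 had none. Each of 22180 genes took its brightest probe set. Differences were fitted in R 4.3.3 by limma 3.58.1, using lmFit then eBayes with no covariate or filter, and adjusted by Benjamini-Hochberg over all genes. For the comparison with B cell markers the mean of 14 markers was subtracted in each array and the fit repeated. The fit was tested on simulated data.

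The members and gene lists were chosen with earlier results of these data known. All 10 members were named, with up to 4 genes of smallest unadjusted p from each list of genes described and the 5 genes nearest in profile to Ebf1 and to the members' mean; a few further list genes were named after their values were seen. Alternatives were a replicate block, each array left out, a sex term, a filter on the dimmest 40% of genes, array weights, a robust prior, a variance trend, median centring, quantile normalization anew, other ways to treat probe sets and other marker references. The 4 male spleens alone and a marker fit without moderation across genes were added after seeing the data. Promoter sequences come from RefSeq (GRCm38.p6).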

Additional observations from a re-analysis of the deposited data

How the results depend on the processing

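All 10 members stayed lower in DX2 under each of 17 alternatives, and 0 of 170 single values changed sign. The median difference of the members ran from -1.12 (without DX2 2) to -0.73 (without DX2 1). The count of members past the threshold, 3 in all arrays, was 0 with the replicate block, 0 with a sex term, 0 in the 4 male spleens, 0 with arrays centred on their medians and 5 with array weights, and ran from 0 to 5 with 1 array left out (5 without DX2 2 and 0 without each of the others). Over all genes the count was 70, against 1 with the replicate block, 2 with a sex term or centred arrays, 547 with array weights, 370 without DX2 2 and between 1 and 8 without another array, and centring moved the median of all genes from 0.01 to 0.10. It was 125 of 13308 with the dimmest genes left out, and 0 in the male spleens (limma), where 1592 genes had an unadjusted p under 0.05. The array weights stopped before full convergence in at least 1 fit, and the lone male control was assumed to vary like the DX2 spleens. Same-numbered samples showed no common deviation from their group means (correlations across genes of -0.32, -0.14 and 0.07). With 3 spleens per group this cannot exclude that they were paired.

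Relative to the B cell markers, 9 of 10 members differed upward under each of 20 alternatives, and 0 of 200 single values changed sign. The count past the threshold, 4, was 2 with the replicate block, 1 with a sex term, 0 in the male spleens, 9 with array weights, 1 with the core markers and 1 with the median of the markers as reference, and ran from 1 to 5 with 1 array left out: 1 without control 1, 2 or 3, 2 without DX2 3, 3 without DX2 2 and 5 without DX2 1. Without moderation across genes it was 4, with Ets1 in place of Pou2af1. Why these counts moved was not tested.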
